A study of Drosophila melanogaster with 3 samples.

Results

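Of the 6096 reproducible peaks of GFP-tagged Lpt on the 5 large chromosome arms of Drosophila melanogaster, profiled in white prepupae, 1145 lay on X. A further 14 peaks lay outside these arms. The X peaks were set against the 4951 on 2L, 2R, 3L and 3R together. The members were all peaks of the deposited dm6 list that had passed an irreproducible discovery rate (IDR) threshold and whose chromosome was X, whatever their signal. Chromatin came from whole animals of a transgenic line that stably expresses Lpt with GFP at its C terminus, was sonicated to 200 to 800 bp, and was immunoprecipitated with an antibody against GFP. The 3 samples were biological replicates of that single group, males and females were pooled, and the age was labelled as unknown. The age, the number of animals and the expression of untagged Lpt in the line were not given, and no control sample was analysed here. Each replicate was represented by the peaks of highest signal in its own list, as many as the IDR list holds and called strong peaks below, of which 1108, 1121 and 1223 lay on X in replicates 1, 2 and 3.

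Lpt is a subunit of the COMPASS-like complex built around the methyltransferase Trr, which in flies places monomethylation on histone H3 at enhancers and acts with the ecdysone receptor as a coactivator. The fly X chromosome is present in a single copy in males, where the MSL complex, guided by the noncoding RNAs roX1 and roX2, raises its transcription to match females. In a pooled sample of both sexes, the lower copy number of X in males therefore lowers the amount of X chromatin relative to the autosomes, and without a control that difference and a difference in binding cannot be told apart in the signal or the number of peaks.

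The sequences at the strongest X peaks are shown first, because most of them held none of the motifs described below: of the 20 strongest, 2 held the GA repeat and 1 the CA repeat within 100 bp of the summit. They are the summits and the 50 bp to each side at ranks 2, 3, 4, 6 and 7 on X, read on the plus strand of dm6 from the RefSeq assembly. The summit at rank 1, 39 bp upstream of a transcription start site (TSS) of Ugalt, is not shown because its window touches an annotated UTR. No base is in capitals, since no motif lay in these windows.
lncRNA:CR44619, X:12751297-12751397: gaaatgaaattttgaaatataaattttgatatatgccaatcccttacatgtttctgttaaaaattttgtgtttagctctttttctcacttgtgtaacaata
CG32772, X:4910364-4910464: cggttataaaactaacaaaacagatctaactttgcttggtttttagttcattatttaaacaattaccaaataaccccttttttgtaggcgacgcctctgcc
ph-p, X:2137266-2137366: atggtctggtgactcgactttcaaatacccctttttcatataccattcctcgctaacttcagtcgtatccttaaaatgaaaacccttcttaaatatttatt
Gapdh2, X:15867931-15868031: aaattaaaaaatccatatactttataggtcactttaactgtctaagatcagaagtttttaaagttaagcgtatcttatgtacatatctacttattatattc
Tlk, X:3742179-3742279: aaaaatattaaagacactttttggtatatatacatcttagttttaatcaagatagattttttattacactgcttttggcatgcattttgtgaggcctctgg
The summits near lncRNA:CR44619, ph-p and Gapdh2 lay 520, 461 and 164 bp from the nearest TSS, each on its upstream side, and those in CG32772 and Tlk lay in introns, 1312 and 2332 bp from one. The windows were rich in A and T: over all X summits the mean GC content of such windows was 36.0%, against 41.8% in windows of the same length centred 1000 bp to each side. On the autosomes the same means were 36.5% and 42.1%. The difference between summit and flank on X was -4.90, -3.75 and -6.77 percentage points in replicates 1, 2 and 3.

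The next sequences are the strongest X summits whose window of 100 bp to each side held GAGAGAGA or CACACACA on either strand and touched no annotated UTR, shown because these repeats were compared between X and the autosomes. Capitals mark the repeat, which reads TCTCTCTC or TGTGTGTG where it lies on the minus strand. The first 3 hold the GA repeat and the other 3 the CA repeat.
CG3726, X:5918809-5919009: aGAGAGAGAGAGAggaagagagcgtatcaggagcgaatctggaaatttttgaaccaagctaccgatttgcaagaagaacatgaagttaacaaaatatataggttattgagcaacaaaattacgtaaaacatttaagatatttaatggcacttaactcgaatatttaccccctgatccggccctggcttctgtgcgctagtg
LPCAT, X:9579165-9579365: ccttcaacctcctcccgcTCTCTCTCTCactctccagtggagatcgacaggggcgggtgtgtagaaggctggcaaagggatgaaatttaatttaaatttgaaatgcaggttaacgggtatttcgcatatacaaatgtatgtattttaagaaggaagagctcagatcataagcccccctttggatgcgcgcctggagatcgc
prage, X:1830693-1830893: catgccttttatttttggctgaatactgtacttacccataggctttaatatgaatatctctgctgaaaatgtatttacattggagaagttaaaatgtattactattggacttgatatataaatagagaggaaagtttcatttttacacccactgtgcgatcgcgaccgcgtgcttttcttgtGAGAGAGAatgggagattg
pico, X:19850619-19850819: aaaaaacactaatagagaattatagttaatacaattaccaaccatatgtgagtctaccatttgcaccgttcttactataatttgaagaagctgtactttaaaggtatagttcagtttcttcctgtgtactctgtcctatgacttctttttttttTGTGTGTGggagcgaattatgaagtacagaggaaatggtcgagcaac
Unc-76, X:2083883-2084083: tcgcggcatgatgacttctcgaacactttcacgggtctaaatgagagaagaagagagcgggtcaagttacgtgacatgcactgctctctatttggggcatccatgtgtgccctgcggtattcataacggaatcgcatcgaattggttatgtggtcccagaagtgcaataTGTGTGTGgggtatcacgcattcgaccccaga
Drak, X:11494917-11495117: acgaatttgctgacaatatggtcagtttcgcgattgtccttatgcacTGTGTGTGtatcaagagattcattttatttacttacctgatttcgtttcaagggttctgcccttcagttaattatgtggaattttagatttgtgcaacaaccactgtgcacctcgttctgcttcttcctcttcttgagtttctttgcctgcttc
In CG3726, LPCAT and prage the GA repeat lay toward an edge of the window, not at the summit. CG3726, whose summit lay in an intron, ranked 5 on X by IDR signal, and LPCAT, which encodes a lysophospholipid acyltransferase, ranked 11. The strongest summits with a CA repeat in a window free of UTRs ranked lower, at 58 (pico), 118 (Unc-76) and 140 (Drak).

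Lpt peaks were spread over nearly the whole X at a density close to that of the autosomes. X held 48.6 IDR peaks per Mb and the 4 autosomal arms together 45.4, a ratio of 1.07. The ratio was 1.03, 1.04 and 1.16 in replicates 1, 2 and 3, a mean of 1.08 ± 0.0723 (SD, n = 3). X lay within the range of the 4 arms, from 43.5 on 2R to 49.3 on 3L, in the IDR list, and above all of them in replicate 3, with 51.9 against 49.2 on 3L. X carries fewer coding genes per Mb (93.3) than any of the other arms (97.4 to 113), and per coding gene the ratio was 1.24 ± 0.0830 (SD, n = 3), above 1 in 3 of 3 replicates. For both ratios the exact sign-flip permutation test over the 3 replicates gave p = 0.25 (two-sided, adjusted p = 0.325 over 13 comparisons). That is the smallest p that 3 replicates allow, so none of the 13 comparisons with the autosomes could pass 0.05, and they are given as values with their spread. The density ratio fell to 0.930 ± 0.0624 when lengths were taken from the first to the last summit of each arm, so its direction depended on how the arm ends were treated. X held 18.8% of the IDR peaks of the 5 arms (95% exact binomial interval 17.8 to 19.8%, counting error only), 17.8% of their bases and 15.8% of their coding genes.

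Along X the summits were unevenly placed, and the replicates shared the pattern. In the 23 full intervals of 1 Mb, the number of IDR summits ran from 5 to 94 with a median of 50. The interval from 3 to 4 Mb held the most, with 94 in the IDR list and 89, 95 and 90 in replicates 1, 2 and 3. It holds only 55 coding genes, among them long ones such as dnc, a cAMP phosphodiesterase, and Tlk, a protein kinase. The interval from 2 to 3 Mb held 83 summits (76, 74 and 76 in the replicates) and 126 coding genes. Summits were scarce toward the centromeric end: the intervals starting at 20, 21 and 22 Mb held 16, 19 and 5, and the replicates gave 3 to 8 in the last of these. The longest stretch without an IDR summit was 850 kb, from 21630028 to 22479665, and 29 coding genes start in it. Across the 23 intervals, Spearman's rho between replicates was 0.947 to 0.964, and that between IDR summits and coding genes was 0.397. These are descriptions over neighbouring intervals of a single chromosome, and the replicates share its mappability and annotation. The median spacing of neighbouring IDR summits on X was 5618 bp.

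**Figure D1:**
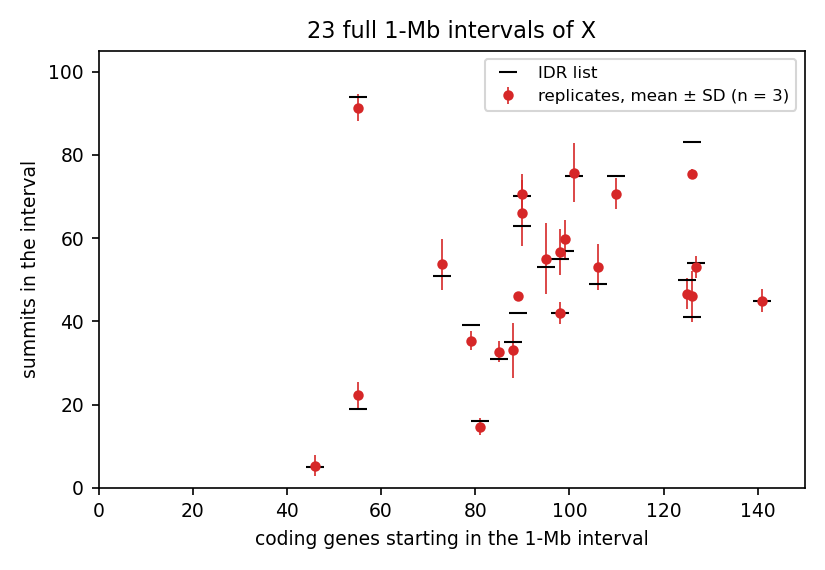
Summits per 1-Mb interval of X (y axis, number) against the coding genes whose lower coordinate lies in the interval (x axis, number) for the 23 full intervals. Red points are means of 3 replicates with SD, black dashes the IDR list. The interval with 94 IDR summits has only 55 coding genes, and the interval with 5 has 46.

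X summits lay in introns more and between genes less than those of every other large arm. On X, 524 IDR summits (45.8%) were promoter summits, within 1000 bp of any annotated TSS. A further 535 (46.7%) lay in introns, 22 (1.92%) in exons and 64 (5.59%) between genes. On the autosomes 47.6% were promoter summits, 37.3% intronic and 13.7% intergenic. The intron share of X was 45.8%, 43.9% and 46.8% in replicates 1, 2 and 3, against 36.0%, 36.6% and 37.0% on the autosomes, and the groups of values did not overlap. The difference was 8.94 ± 1.39 percentage points (SD, n = 3; exact permutation p = 0.25, adjusted 0.325; 3 of 3 replicates). The intergenic share of X was 5.05%, 5.53% and 6.13%, against 13.7%, 12.5% and 15.5%, again without overlap. That difference was -8.34 ± 1.22 percentage points (SD, n = 3; exact permutation p = 0.25, adjusted 0.325; 3 of 3 replicates). In the IDR list the 4 autosomal arms ranged from 34.9% to 39.0% for introns and from 10.2% to 19.0% for intergenic summits, and X lay outside both ranges there and in each replicate.

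**Figure D2:**
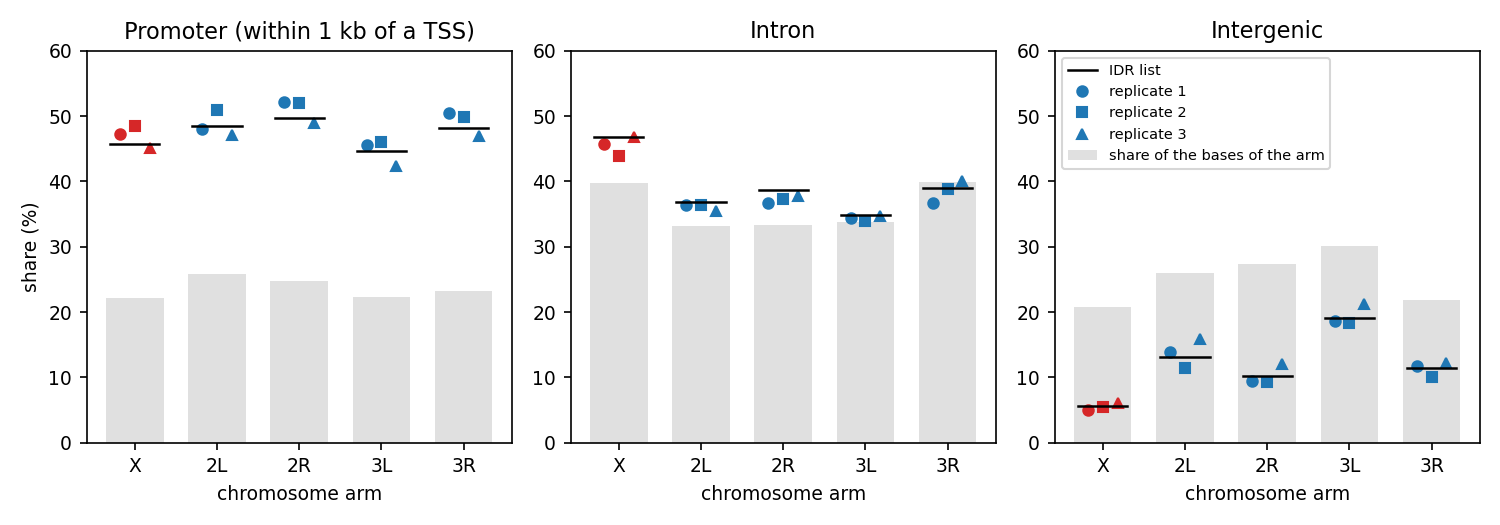
Share of summits (y axis, %) in promoters, introns and intergenic regions on X (red) and on 2L, 2R, 3L and 3R (blue). Points are replicates, black lines the IDR list and grey bars the share of each arm's bases in that class. X has the highest intron share (46.7% in the IDR list) and the lowest intergenic share (5.59%), while its promoter share lies within the range of the other arms.

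The arms also differ in how much of their sequence is intron or intergenic, so shares of bases were set beside shares of summits. Introns more than 1000 bp from a TSS make up 39.8% of X and intergenic sequence 20.8%, against 35.4% and 26.2% of the 4 autosomal arms. The closest arm in this respect is 3R, with 40.0% and 21.9%. The share of IDR summits divided by the share of bases was 1.17 on X for introns, against 0.976 on 3R, 1.16 on 2R, 1.11 on 2L and 1.03 on 3L, and it was 0.269 on X and 0.524 on 3R for intergenic sequence. For intergenic sequence this ratio was lower on X than on each of the 4 arms in all 4 lists. For introns it was higher on X than on each of them in 3 of the 4 lists. The exception was replicate 2, where it was 1.10 on X and 1.12 on 2R. Weaker regions differed in the same direction: of 4185 X peaks of the pooled input list that overlapped no IDR peak, 49.6% were intronic and 11.3% intergenic, against 42.1% and 20.6% on the autosomes. Divided by shares of bases, the intron share of these weaker peaks was 1.25 on X, below the 1.28 of 2L and above the other arms. Their intergenic share so divided was 0.544 on X and 0.650 to 0.841 on the other arms. The part of these weaker peaks in the difference between the IDR lists was not tested.

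Promoter summits were nearly as common on X as elsewhere, with a smaller share at noncoding TSSs. The promoter share of X was 1.27 ± 0.386 percentage points below that of the autosomes (SD, n = 3; exact permutation p = 0.25, adjusted 0.325; 3 of 3 replicates lower). With the TSSs of protein-coding genes alone it was 1.28 ± 0.511 points above. Bases within 1000 bp of a TSS make up 22.2% of X and 24.0% of the 4 autosomal arms. Divided by the share of bases, the promoter share of IDR summits was 2.06 on X, within the 1.88 to 2.07 of the other arms. By that measure X was above all 4 arms in 2 of the 4 lists and below all of them in none. Summits within 1000 bp of a noncoding TSS and of no coding one made up 2.62% of X summits and 5.19% of autosomal ones in the IDR list. The replicates gave 2.80%, 2.68% and 2.45% on X against 5.27%, 5.07% and 5.25%, a difference of -2.55 ± 0.213 points (SD, n = 3; exact permutation p = 0.25, adjusted 0.325). How many noncoding TSSs X and the autosomes carry is not given here, so nothing about the placement of Lpt is read from this difference. The 30 such X summits include those at lncRNA:CR44619, and the one at asRNA:CR44512 lay 1113 bp upstream of Zw, which encodes glucose-6-phosphate dehydrogenase. Within 100 bp of a TSS lay 7.77% of X summits and 11.7% of autosomal ones. In the replicates this share was 8.21%, 9.81% and 6.46% on X and 12.2%, 13.7% and 9.51% on the autosomes, so it was lower on X within each replicate, while the groups of values overlapped between replicates. More than 10 kb from every TSS lay 100 X summits (8.73%), against 9.31% on the autosomes, and the difference of -0.246 ± 0.2497 points took both signs (SD, n = 3; exact permutation p = 0.5, adjusted 0.591). Of these 100 summits, 96 were intronic. They belonged to 39 hosts, a host being the gene at the nearest TSS for promoter and intergenic summits and otherwise the gene that contains the summit. The hosts with most were kirre with 11, which encodes an immunoglobulin adhesion protein of myoblast fusion, and Hr4 with 10, a nuclear receptor of the ecdysone response. The endocytic receptor gene mgl and the zinc-finger gene mamo had 6 each.

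A promoter summit was present at 453 of 2196 X coding genes, which is 20.6%, against 2224 of 11669 on the autosomes, which is 19.1%, and 2682 of 13945 on all 6 arms, which is 19.2%. Over the replicates X exceeded the autosomes by 1.91 ± 0.665 percentage points (SD, n = 3; exact permutation p = 0.25, adjusted 0.325; 3 of 3 replicates). The difference was smaller and took both signs with the stronger 50% of peaks, at 0.486 ± 0.563 points, and with promoters of 500 bp, at 0.623 ± 0.853 points (SD, n = 3; exact permutation p = 0.5 for each). Counting summits anywhere in the gene body, 374 X genes (17.0%) and 1481 autosomal genes (12.7%) had at least 1. At least 5 summits were found in 55 X genes (2.50%) and in 164 autosomal genes (1.41%). X coding genes are longer, with a median of 2.52 kb against 2.09 kb, so the comparison was also made within classes of length, as a description. Among genes of 20 to 50 kb, 62.0% of 129 X genes and 54.5% of 565 autosomal genes held a summit. The replicates gave 62.8%, 60.5% and 62.8% on X and 52.4%, 55.2% and 55.0% on the autosomes, with no overlap. Among genes over 50 kb the shares were 69.6% of 69 and 61.6% of 237. For this share, of genes with at least 1 summit in the body, X was above the autosomes in every length class in the IDR list and in each replicate. Other counts did not follow it in every class: of genes under 5 kb, 13.6% on X and 14.2% on the autosomes had a promoter summit in the IDR list, and of genes of 5 to 20 kb, 1.11% and 1.42% had at least 5 summits in the body.

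**Figure D3:**
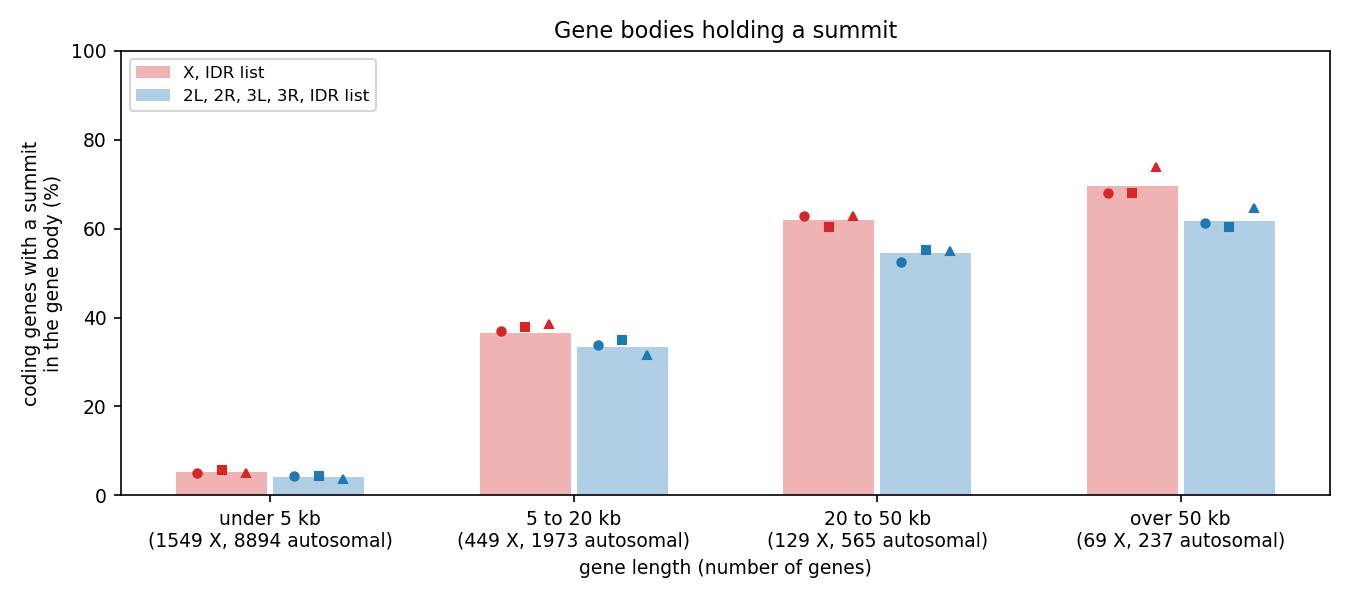
Share of coding genes with a summit in the gene body (y axis, %) by gene length (x axis, with the number of genes) on X (red) and on 2L, 2R, 3L and 3R (blue). Bars are the IDR list, circles, squares and triangles replicates 1, 2 and 3. The share grows with gene length on both, and X is above the autosomes in each class (62.0% against 54.5% for 20 to 50 kb).

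The X genes with most summits in the body were long. kirre, at X:2740384-3134532 on the plus strand, held 22 IDR summits over 394 kb, and 22, 24 and 22 in the replicates. Some summits in its span had other hosts, among them Syx4 and CG32795. By host, Hr4 had the most X peaks, with 19, and kirre had 17. CG1677 held 21 over 125 kb (21, 18 and 23), but genes nested in or overlapping it, among them brk and unc-119, were the hosts of some of these. Hr4, at X:1941940-2007956, held 19 over 66.0 kb (16, 19 and 19). Tlk, which encodes the Tousled-like kinase of chromatin assembly, held 17 over 69.8 kb (20, 19 and 16). Mnt, a partner of Max that represses transcription, held 14 within 29.9 kb (13, 15 and 15), the closest packing of these 5. The next were Raf, the kinase at the head of the MAP kinase cascade, with 13, and spri, a guanine nucleotide exchange factor, with 12. CHES-1-like, a forkhead factor, CG43658 and mgl held 11 each. In all, 531 hosts, 470 of them coding, shared the 1145 peaks. Of these, 319 had a single peak, and 55 hosts with at least 5 held 427.

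Runs of at least 5 summits with gaps of at most 5000 bp, called dense loci here, numbered 41 on X and held 263 IDR summits. These summits were 62.0% intronic and 33.1% at promoters. The locus with most summits, X:3673908-3695371, held 14 summits, 12 of them in introns of Mnt, and the replicates had 11, 13 and 12 there. The locus at Raf and CG2865, X:2289345-2306735, held 12 (13, 10 and 12). The locus at CHES-1-like, X:7692270-7709215, held 11 (9, 12 and 8). That at CG1677 and brk, X:7300858-7312622, held 9 (8, 5 and 7), and brk encodes the repressor of Dpp target genes. Loci of 8 summits lay at Hr4 (4, 9 and 6) and at Tis11, whose protein promotes decay of AU-rich mRNAs (5, 8 and 3). Loci of 7 lay at Tlk, in 2 separate runs, and at ec, a gene for removal of surplus cells from the pupal eye. Others of 7 lay at LPCAT with Hex-A, a hexokinase gene, at spri with Rab9D, and at lncRNA:CR44619 with lncRNA:Vinr. The locus at lncRNA:CR44619, X:12750396-12756042, held 7 in the IDR list and 7 in each replicate.

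Of the 41 loci, 35 had at least 3 strong summits in each replicate and 11 had at least 5 in each. The share of X summits in dense loci was 23.0% in the IDR list against 20.3% on the autosomes. In the replicates it was 18.3%, 22.6% and 21.8% against 22.4%, 20.2% and 19.99%, and the difference of 0.0475 ± 3.60 percentage points did not hold against this spread (SD, n = 3; exact permutation p = 1, adjusted 1). It was negative in replicate 1 and positive in the others. Without replicate 2 it was -1.13 points and without replicate 3 it was -0.851. With the stronger 50% of peaks it was 4.24 ± 0.671 points, positive in 3 of 3 replicates (SD, n = 3; exact permutation p = 0.25), and with gaps of up to 10000 bp it was 4.28 ± 4.58, also positive in 3 of 3.

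**Figure D4:**
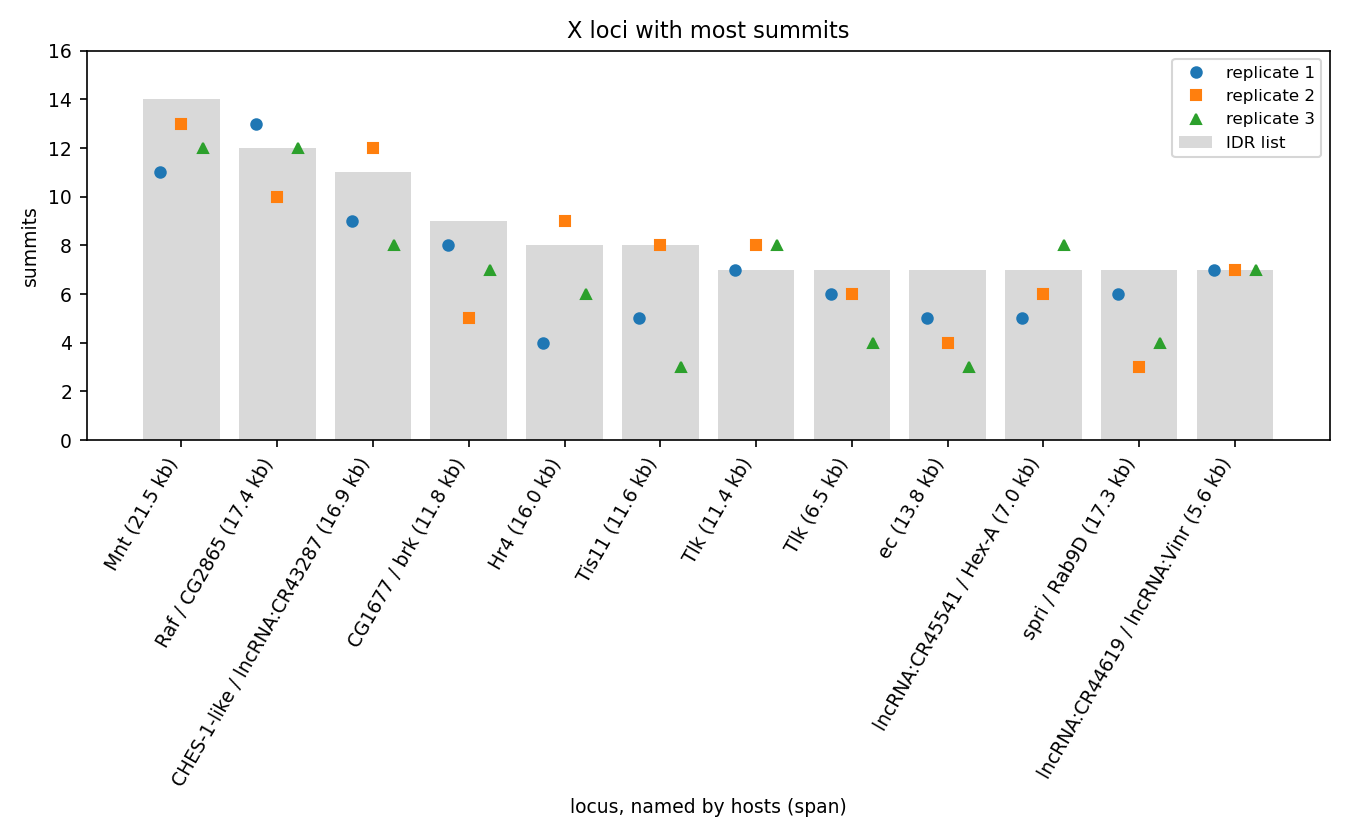
Number of summits (y axis) in the X loci with most IDR summits (x axis, hosts and span in kb). Bars are the IDR list and points the replicates. Mnt leads with 14 summits in the IDR list and 11 to 13 in the replicates, and the locus at lncRNA:CR44619 has 7 in every list.

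The strongest X peaks lay mostly at promoters. Signal here is the signal value that the authors deposited for each peak, on the scale of its own list. Of the 20 strongest X peaks by IDR signal, 14 were promoter summits and 6 intronic, and all 20 overlapped a strong peak of each replicate. Their 18 hosts include 2 noncoding RNAs. The peak at Ugalt, a UDP-galactose transporter gene, ranked 1 on X and 2 of all IDR peaks, with signal 583, 735 and 598 in replicates 1, 2 and 3. The peak upstream of lncRNA:CR44619 had 453, 607 and 502, and a second peak of that RNA, at rank 8, had 263, 382 and 289. An intronic peak of CG32772 had 416, 616 and 438. The peak at ph-p, a Polycomb group gene of PRC1, had 451, 517 and 453. Its tandem copy ph-d had a peak of 196, 177 and 113, and since the copies are similar in sequence, the share of reads between them is uncertain. CG3726 had 344, 448 and 364. Gapdh2, of glycolysis, had 347, 486 and 274. The Tlk peak had 310, 392 and 305. The peak in lncRNA:CR45668, 4706 bp upstream of the cytoplasmic actin gene Act5C, had 267, 391 and 269. The Hr4 peak, in an intron, had 286, 347 and 214.

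In 19 of these 20 peaks replicate 2 was the highest. The exception was CG8034, with 235, 242 and 274. The lists differ in scale, with a median over the X peaks of 55.1, 75.6 and 47.5, so such values do not show more binding in replicate 2. The others among the 20 were LPCAT, GstT4 of glutathione conjugation, MFS10 of the major facilitator transporters, pdgy, an acyl-CoA synthetase, bbx, an HMG-box gene, Dok, an adaptor of kinase signalling, a second peak of CG32772, CG43658 and NFAT, a transcription factor. Their IDR signals ran from 737 to 830. The strongest X peak between genes lay 1871 bp upstream of Atf3, a bZIP factor gene, and had 150.3, 205 and 195. The next lay 3709 bp upstream of ct, a homeobox gene, with 138, 264 and 119.7.

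**Figure D5:**
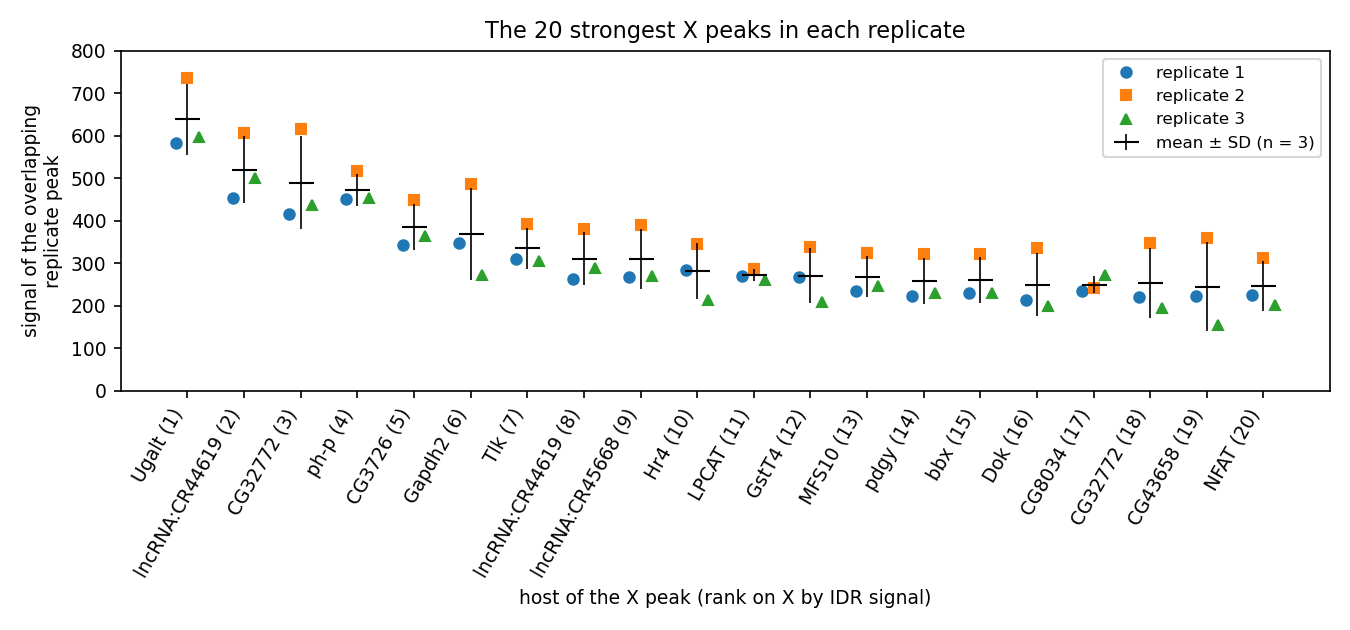
Signal of the overlapping replicate peak (y axis, the deposited signal value on the scale of each list) for the 20 X peaks of highest IDR signal (x axis, host and rank on X). Points are replicates, black marks the mean with SD (n = 3). Ugalt is highest (583 to 735), and replicate 2 is highest at 19 of the 20 peaks.

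The typical signal of X peaks was close to that of the autosomes, with X somewhat over its share among the strongest and, in some lists, among the weakest. The ratio of median signal, X to autosomes, was 1.01, 0.999 and 0.998 in the replicates, a mean of 1.00 ± 0.00943 (SD, n = 3; exact permutation p = 1, adjusted 1). Each replicate list was cut at the same signal for X and the autosomes. This ratio therefore describes only peaks above that cut. Of the strongest 10% of peaks on the 5 arms, X held 21.9% in the IDR list, and 21.6%, 20.9% and 20.8% in the replicates. X held 18.2%, 18.4% and 20.05% of all peaks in the same lists. The difference, 2.24 ± 1.37 percentage points, was positive in 3 of 3 replicates (SD, n = 3; exact permutation p = 0.25, adjusted 0.325). With the stronger 50% of peaks it was 0.924 ± 0.822 points. Of the weakest 10% of peaks, X held 20.5% in the IDR list, and 18.2%, 18.7% and 21.5% in replicates 1, 2 and 3. Among the strongest 10% of the IDR list 60.4% of X summits were at promoters, and 64.1% of autosomal ones. Among IDR peaks, 760 of 1145 on X (66.4%, 95% exact interval 63.6 to 69.1%) and 63.0% on the autosomes (61.6 to 64.3%) overlapped a strong peak of every replicate. The shares were close in replicates 1 and 2 (85.0% and 85.6% on X, 85.9% and 85.0% on the autosomes) and differed in replicate 3 (85.7% and 80.4%), which also had the most X peaks. Only 5 of the 1145 X peaks overlapped none of the strong lists.

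Simple repeats were found at more X summits than autosomal summits, but also in more of the X sequence. GAGAGAGA, the repeat bound by GAGA factor, lay within 100 bp of 67 X summits (5.85%) and at 4.44% of autosomal summits, on either strand. The difference over replicates was 1.44 ± 0.567 percentage points (SD, n = 3; exact permutation p = 0.25, adjusted 0.325; 3 of 3 replicates). It did not hold against the spread within 50 bp of the summit, at 0.246 ± 0.975 points, or for the shorter GAGAG, at 0.469 ± 0.889 points (SD, n = 3; exact permutation p = 0.75 for each). CACACACA, a repeat known to be abundant on the fly X, lay at 9.17% of X and 6.60% of autosomal summits, with a difference of 2.98 ± 0.626 points (SD, n = 3; exact permutation p = 0.25, adjusted 0.325; 3 of 3 replicates). Of all consecutive windows of that length, 1.54% on X and 1.05% on the autosomes held the first repeat, and 5.77% and 3.77% the second. Divided by these shares, the GA repeat stood at 3.81 ± 1.33 on X and 4.21 ± 1.42 on the autosomes, and the CA repeat at 1.59 ± 0.321 and 1.65 ± 0.474 (SD, n = 3). By that measure the mean of X was not above that of the autosomes for either repeat, although in replicate 3 the CA repeat stood at 1.27 on X and 1.11 on the autosomes.

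The other motifs searched for were short core-promoter elements and were rare at X summits. TATCGATA, the DRE element, which is its own reverse complement, lay at 14 X summits (1.22%) and at 1.07% of autosomal summits. In replicate 3 the order was the opposite, with 1.23% on X and 1.33% on the autosomes. Relative to all windows it stood at 1.60 ± 0.183 on X and 2.21 ± 0.396 on the autosomes (SD, n = 3), and was lower on X in each list. GGTCACAC, the core of the promoter element called motif 1, lay at 5 X summits (0.437%) and at 43 autosomal ones (0.869%). In replicates 1, 2 and 3 the latter share was 0.451%, 0.446% and 0.572% on X and 1.02%, 0.945% and 1.00% on the autosomes, so it was lower on X in each list. All windows held it at 0.486% and 0.419%. Relative to all windows motif 1 stood at 1.01 ± 0.147 on X and 2.36 ± 0.0969 on the autosomes (SD, n = 3). These shares were not among the comparisons tested. With so few X summits, the lower share rests on 5 to 7 summits a list. The motifs do not contain one another, and a match describes letters only.

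Known X-linked genes differed widely in whether Lpt lay at their promoters. Of 89 X genes on 14 lists, 25 had a promoter summit in the IDR list (28, 27 and 27 in the replicates). The genes were picked as well-known ones and many are long, so this share is not read against the 20.6% of all X coding genes. Of 9 genes of the Notch, Wnt, Dpp and Hippo pathways, 6 had a promoter summit. The strongest was at sgg, the kinase GSK3, with signal 153, 215 and 145. At Mer, the Merlin tumour suppressor, it was 125, 119.6 and 63.7. N, the Notch receptor, had 52.4, 67.2 and 50.8 at its promoter, and a stronger intronic peak of 156, 157 and 120.2. arm, sog and sd also had one, and those at arm and sog were not among the strong peaks of replicate 3.

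Among 4 X genes of the ecdysone pathway, br and Hr4 had a promoter summit in the IDR list. Among strong peaks, usp, the partner of the ecdysone receptor, had one within 1000 bp of a TSS in replicate 3 only. The full input lists of replicates 1, 2 and 3 held 3, 4 and 2 peaks in usp or within 1000 bp of it. The promoter peak of br, the early ecdysone gene broad, had signal 53.7, 76.7 and 56.7. Of 9 genes for chromatin proteins and coactivators, fs(1)h, ph-p, ph-d and nej had a promoter summit. The summit within 1000 bp of a TSS of nej, the histone acetyltransferase CBP, had 94.3, 149 and 82.2, and lay nearer to a TSS of lncRNA:CR42657. trr itself had no promoter summit in the IDR list or among the strong peaks of any replicate, and its nearest IDR summit lay 1607 bp outside the gene. The full input lists of replicates 1, 2 and 3 held 4, 1 and 1 peaks in trr or within 1000 bp of it. Of 10 neuronal genes, 4 had a promoter summit, and that at elav, a neuronal RNA-binding protein, had signal 265, 285 and 150.3. The channel genes para and cac had no IDR summit within 5 kb, while 53 of the 89 listed X genes had one. The share of all X genes at that distance is not given, so nothing is read from this lack.

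None of the 4 achaete-scute proneural genes (ac, sc, l(1)sc and ase) had an IDR summit within 5 kb. At ac, replicate 3 had 1 strong summit within that distance. No share of all X genes is given for 5 kb, so nothing is read from this count. None of 8 genes of yolk, chorion and the female germline had a promoter summit in the IDR list or among the strong peaks of any replicate. None of 5 cuticle and glue genes had one either. Most of these genes are under 5 kb. Of all X coding genes of that length, 13.6% had a promoter summit in the IDR list, so nothing is read from these counts. Sgs4, a salivary glue gene, had 2 IDR summits within 5 kb, and the stronger, with signal 164, 205 and 187, was a promoter summit of dnc, 353 bp from a dnc TSS. Of 4 dosage compensation genes 1, Sxl, had a promoter summit, and with 20.6% of all X coding genes as the background nothing is read from that count. roX1 had no IDR summit within 5 kb, and its nearest lay 5970 bp away. Near roX2 the IDR list had 2 summits within 5 kb, 1 of them 35 bp past the gene's end. They are promoter summits of CG11695 and nod, with IDR signal 170.0 and 136, and neither lay within 1000 bp of the roX2 TSS. mof, the acetyltransferase of the MSL complex, had no promoter summit, and its nearest IDR summit lay 3785 bp away. Sxl, the switch gene of sex determination, had 2 promoter summits in each list, the stronger with signal 51.5, 61.0 and 57.3.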

How the data were processed

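Peaks of 3 biological replicates of 1 group were analysed. Per the labels, the deposited lists are input lists for IDR, one per replicate and one pooled, and an IDR-thresholded list, in dm6. The signal of each peak (column 7) is the authors' deposited signal value, with summits as offsets. The aligner, the caller, the IDR threshold and the depth were each not given in the sources used here, so no precision from depth was computed. The dm3 lists were not used.

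Summits (1-based, dm6) were annotated with Ensembl release 115 on the release 6 genome, transposable elements left out. Windows came from the RefSeq assembly. X was compared with 2L, 2R, 3L and 3R within each replicate's strongest peaks, as many as the IDR list holds, by exact two-sided sign-flip permutation tests over 3 replicates with Benjamini-Hochberg adjustment over 13 comparisons. The IDR list pools the replicates and has no test. Overlap meant at least 1 shared base. Binomial intervals (95%, Clopper-Pearson) cover counting error only. Statistics were tested on simulated data.

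Named genes were hosts of the 20 strongest X peaks and of the 10 loci with most summits (ties kept), the 10 coding genes with most summits, and X members of 14 lists. Of 102 list symbols, 89 were on X, 11 elsewhere and 2 unmatched. Hosts of intergenic, distant, noncoding and repeat-holding summits were named after their values were seen. Members and lists were chosen with earlier results of these data known. The tools were scipy 1.17.1, pandas 2.3.3, numpy 2.4.6 and matplotlib 3.10.9 under Python 3.11.15.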

Additional observations from a re-analysis of the deposited data

How the results depend on the processing

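All samples belong to 1 group, so there was no second group to pair, and X and the autosomes were paired within each replicate in every test. The 13 comparisons with the autosomes were repeated without each replicate, with the stronger 50% of peaks, in the IDR list and in IDR peaks strong in the replicates kept, and with other distances, gaps, motif windows and TSS sets. The direction was kept in 119 repeats and turned in 9. It turned for the density ratio with lengths from first to last summit (0.930), and for the promoter share with coding TSSs only (1.28 points). It also turned for the share over 10 kb from a TSS in IDR peaks strong in 2 replicates (0.758, 0.620 and 0.366 points without replicates 1, 2 and 3), for the median signal ratio without replicate 1 (0.998, against up to 1.01 without another; 0.997 in IDR peaks strong in the others), and for dense loci without replicate 2 (-1.13) or 3 (-0.851), against 2.12 without replicate 1. In these, the cause was not tested. Alternatives that divided the intron and intergenic shares by base shares, or joined summits under 500 bp apart, were chosen after seeing the data and kept the direction. So was leaving out ncRNA entries named by a transcript ID, which changed no value and so tested nothing. Sizes moved by over 1.5 times in some: the promoter share to -0.729 ± 1.53 points with the stronger 50% of peaks, -1.95 at 500 bp, -0.0655 at 5000 bp, -1.93 with close summits joined and -0.535 in IDR peaks strong in replicates 2 and 3; noncoding promoters to -1.57 with the stronger 50% of peaks, -1.64 at 500 bp and -4.00 at 2000 bp; the GA repeat to 0.831 with the stronger 50% of peaks; and the CA repeat to 1.35 ± 0.483 within 50 bp. With 3 replicates no comparison can pass 0.05, and peaks without a control cannot be told apart from enrichment without Lpt-GFP.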
